A study of Mus musculus with 8 samples.

Results

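Toll-like receptors and their co-receptor Cd14 were compared between Spp1 knockout and wild-type astrocyte cultures from newborn mouse retina and optic nerve. The genes were taken by symbol, as Tlr followed by a number or Cd14, from the authors' deposited table of genes that differed between the genotypes, and 9 of its 3624 rows matched. GENCODE M21 annotates 13 mouse genes with such symbols. The table used here holds Tlr1, Tlr2, Tlr4, Tlr6, Tlr7, Tlr8, Tlr9, Tlr13 and Cd14, and no row for Tlr3, Tlr5, Tlr11 or Tlr12, which were not analysed here. Such a gene may have fallen short of the authors' limits or gone untested, and its absence says nothing about its expression.

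Total RNA was sequenced from 4 wild-type samples (strain C57BL/6) and 4 Spp1-/- samples (strain B6.129S6(Cg)-Spp1tm1Blh/J). Spp1 encodes osteopontin, a secreted phosphoprotein of matrix that also acts as a cytokine. Both groups came from pups at postnatal day 1 to 3 and grew in DMEM/F12 with 10% fetal bovine serum. The labels name no receptor ligand or other treatment. The labels give no litter, batch or sex and do not say whether the samples were separate cultures, so the deposited errors and p-values cover no more than the differences among these samples, possibly technical ones. Other differences between the 2 strains cannot be told apart from the loss of Spp1. The deleted gene had a log2 fold change of -5.90 (SE 0.11, where SE is the deposited standard error on that scale) in the authors' deposited table, which set the direction as knockout over wild type.

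Toll-like receptors are membrane proteins of innate immunity that recognise conserved molecules of microbes and, in some cases, of damaged cells. Tlr1, Tlr2, Tlr4, Tlr5 and Tlr6 sit mainly at the cell surface and bind lipoproteins, lipopolysaccharide or flagellin. Tlr3, Tlr7, Tlr8, Tlr9, Tlr11, Tlr12 and Tlr13 work in endosomes, most of them sensing RNA or DNA, and depend on the chaperone Unc93b1 to reach them. Both kinds signal through adaptor proteins, chiefly Myd88, to NF-κB and interferon regulatory factors. In neural tissue microglia and macrophages express these receptors most broadly, while astrocytes are known to express some of them.

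The bases just before the start sites of 5 members are shown because 4 of them had the largest fold changes of the set and the fifth, Tlr2, was the surface receptor with the highest implied level per length. RefSeq windows (GRCm38.p6) were matched by symbol for 6 of the 9 members, and Tlr4, Tlr7 and Cd14 had none. The 250 bases before the start site were searched on both strands for 5 motifs. GAGGAA is a core of sites for PU.1, the myeloid factor encoded by Spi1. The motif of GATA factors was searched as AGATAA and that of AP-1 as TGANTCA. For interferon regulatory factors the pattern was GAAA, then any 2 bases, then GAAA again, and for NF-κB its consensus site. Capitals mark every match, and each line runs 5′ to 3′ on the strand of the gene.
Tlr8, chrX:167264330-167264579, minus strand: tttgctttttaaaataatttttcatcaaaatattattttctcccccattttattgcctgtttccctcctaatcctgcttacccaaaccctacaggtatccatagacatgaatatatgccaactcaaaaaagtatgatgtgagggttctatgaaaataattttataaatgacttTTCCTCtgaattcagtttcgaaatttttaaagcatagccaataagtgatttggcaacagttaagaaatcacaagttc
Tlr13, chrX:106143025-106143274, plus strand: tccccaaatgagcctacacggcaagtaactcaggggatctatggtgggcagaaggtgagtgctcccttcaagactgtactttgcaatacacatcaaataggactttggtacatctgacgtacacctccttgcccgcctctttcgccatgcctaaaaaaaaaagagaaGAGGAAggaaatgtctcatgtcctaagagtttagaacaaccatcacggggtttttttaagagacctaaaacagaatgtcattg
Tlr1, chr5:64933559-64933808, minus strand: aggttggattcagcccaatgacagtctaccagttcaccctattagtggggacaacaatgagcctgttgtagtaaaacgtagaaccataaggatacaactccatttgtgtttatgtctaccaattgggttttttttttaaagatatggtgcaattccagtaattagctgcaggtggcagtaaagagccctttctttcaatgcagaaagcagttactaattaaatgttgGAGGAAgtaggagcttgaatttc
Tlr9, chr9:106222348-106222597, plus strand: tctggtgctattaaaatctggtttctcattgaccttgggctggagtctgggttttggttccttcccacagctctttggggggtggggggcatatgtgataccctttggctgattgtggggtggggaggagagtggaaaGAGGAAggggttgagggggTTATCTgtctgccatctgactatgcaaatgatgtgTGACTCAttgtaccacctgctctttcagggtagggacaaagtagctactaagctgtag
Tlr2, chr3:83841609-83841858, minus strand: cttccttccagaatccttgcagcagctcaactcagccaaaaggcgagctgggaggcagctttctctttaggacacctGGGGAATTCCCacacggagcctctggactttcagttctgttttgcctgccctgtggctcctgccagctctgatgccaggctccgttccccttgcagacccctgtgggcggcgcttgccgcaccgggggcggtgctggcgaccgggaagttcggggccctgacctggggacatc

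Capitals in Tlr8 mark the PU.1 core on the reverse strand, and in Tlr13 and Tlr1 they mark it on the forward strand. Tlr9 held the PU.1 core, a GATA match on the reverse strand and an AP-1 match, whose search pattern TGANTCA matches on both strands. Matches in Tlr2 were overlapping NF-κB ones. The PU.1 core was present in 4 of the 6 members with a window and in 23.1% of 27025 mouse promoter windows of the same length, without counting the second RefSeq start site of Tlr1, whose window had no match. The NF-κB consensus occurred in 7.01% of windows, AP-1 in 6.87% and GATA in 10.3%. Interferon factor patterns, in 3.04% of windows, were found among the members at 1 of the start sites of Tlr6. Such a match is a description of the letters, not a binding site.

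All 9 members were higher in the knockout. In the authors' deposited table as a whole, 54.9% of rows were higher, and the members were picked from that same table, so the count describes them and tests nothing. Each member was higher by at least 1 on the log2 scale, a size that 35.5% of rows reached, and 6 were higher by at least 2, against 15.4% of rows. The median log2 fold change of the members was 2.13, beside 0.66 over the whole table and 1.31 over its 1991 higher rows. The table holds 0 columns of single samples, so neither the values of each sample nor the overlap of the groups could be given. Levels below are implied means, worked out from the deposited mean normalized count and fold change with the groups taken as equal in size.

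**Figure D1:**
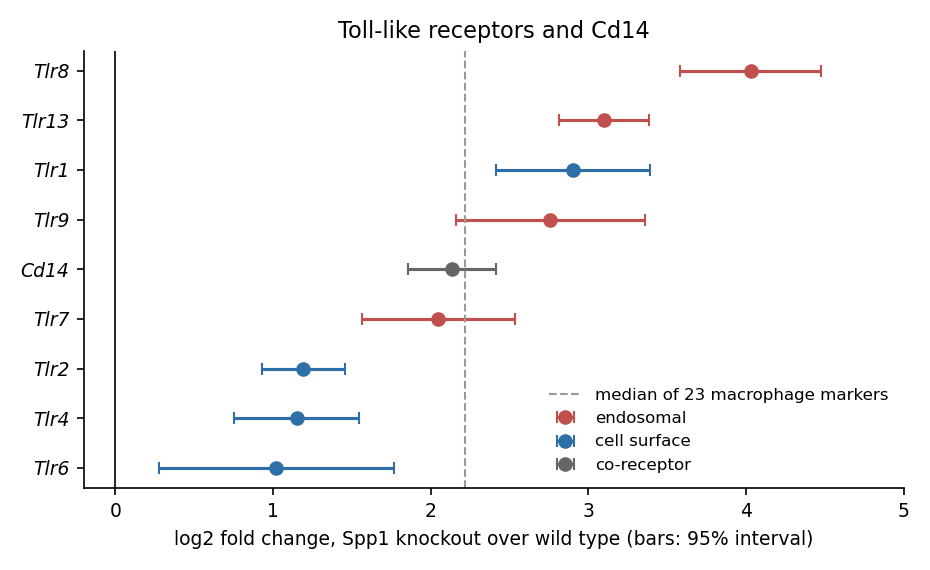
Log2 fold change of each member, knockout over wild type, from the authors' deposited table (x axis), with members in order of size (y axis); points are the deposited values, bars their 95% intervals from the deposited standard errors, and colours the receptor class. Tlr8 lies apart at 4.03, and Tlr2, Tlr4 and Tlr6 lie between 1.02 and 1.19, left of the dashed median of 23 macrophage markers at 2.22.

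The 2 largest rises were those of the endosomal receptors Tlr8 and Tlr13. Tlr8, a sensor of RNA breakdown products, lies on the X chromosome (chrX:167242696-167264329 in GRCm38, minus strand). Its implied mean was 70.5 normalized counts without the deletion and 1152 with it. In the authors' deposited table Tlr8 rose by 4.03 (SE 0.23, adjusted p = 5.88e-67), with a 95% interval of 3.58 to 4.48 and a fold of 16.3. The wild-type level was thus 6.12% of the knockout level, the lowest such share among the 9 members. Tlr8 ranked 87 of 3624 rows by log2 fold change and exceeded 95.6% of the higher rows.

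Tlr13, which recognises bacterial ribosomal RNA in mice, lies elsewhere on the X chromosome (chrX:106143204-106160493, plus strand). Wild-type cultures had an implied mean of 307 and knockout cultures one of 2634. The authors' deposited table gave Tlr13 a log2 fold change of 3.10 (SE 0.15, adjusted p = 1.27e-97), an 8.58-fold rise. Its Wald statistic ranked 13 of 3624 rows in size, the highest rank among the members. The 95% interval of Tlr13, from 2.82 to 3.39, lay below that of Tlr8, which began at 3.58.

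Tlr7, a sensor of single-stranded RNA, and Tlr9, a sensor of DNA with unmethylated CpG, completed the endosomal set. Tlr7 (chrX:167304929-167330558, minus strand) lies 40.6 kb from Tlr8, with implied means of 300.4 (wild type) and 1242 (knockout). It rose by 2.05 (SE 0.25, adjusted p = 3.63e-15) in the authors' deposited table. The 95% interval of Tlr7, up to 2.53, ended below that of its neighbour Tlr8. Tlr9 (chr9:106222598-106226883, plus strand) had implied means of 27.2 and 184 and rose by 2.76 (SE 0.31, adjusted p = 7.45e-18) in the authors' deposited table.

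Among the cell-surface receptors Tlr1 stood apart from the other 3. Tlr1, which pairs with Tlr2 to bind triacylated lipopeptides, lies at chr5:64924679-64933563 on the minus strand. Implied means were 27.8 in wild type and 208 in knockout. The authors' deposited table gave it a log2 fold change of 2.90 (SE 0.25, adjusted p = 2.24e-29), a 7.48-fold rise that placed it between Tlr13 and Tlr9. Tlr6, its paralog 18.5 kb away (chr5:64952031-64960097, minus strand), pairs with Tlr2 to bind diacylated lipopeptides. Tlr6 had implied means of 46.9 and 95.1 and rose by 1.02 (SE 0.38, adjusted p = 0.0272) in the authors' deposited table. Tlr6 was the member closest to the limits of the table, whose largest adjusted p was 0.0499 and smallest absolute log2 fold change 0.58.

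Tlr1 and Tlr6 are alike in sequence, so reads could be split between them or lost, depending on how the authors counted. Of the 50-base words in Tlr1 transcripts 14.8% also occurred in Tlr6, and 12.3% of those in Tlr6 occurred in Tlr1. No other pair of members shared a 50-base word, and no annotated gene overlapped any member. The 95% interval of Tlr1 (2.41 to 3.39) lay above that of Tlr6 (0.28 to 1.77), and the effect of shared reads on either was not tested. Both genes share chromosome 5 with Spp1, at a distance of 39.5 Mb. The part of the chromosome around Spp1 that came from the original knockout strain was not analysed here.

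Tlr2 and Tlr4 had log2 fold changes close to each other. Tlr2, the shared partner of Tlr1 and Tlr6 (chr3:83836272-83841767, minus strand), had implied means of 364 in wild type and 833 in the knockout. Its log2 fold change in the authors' deposited table was 1.19 (SE 0.14, adjusted p = 4.22e-17), a 2.29-fold rise. Tlr4, the lipopolysaccharide receptor (chr4:66827584-66930284, plus strand), had implied means of 353 and 784. It rose by 1.15 (SE 0.20, adjusted p = 2.04e-07), which is 2.22-fold, in the authors' deposited table. The gap between Tlr2 and Tlr4 was 0.04 on the log2 scale and lay within both intervals.

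Cd14 passes lipopolysaccharide to Tlr4 and also serves Tlr2 and several endosomal receptors. Implied means were 563 for wild type and 2469 for knockout. In the authors' deposited table it rose by 2.13 (SE 0.14, adjusted p = 1.16e-48), a fold of 4.39 with a 95% interval of 3.62 to 5.32. That interval lay above those of Tlr2 and Tlr4 on the log2 scale (1.86 to 2.41 against upper ends of 1.46 and 1.55).

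In the order of fold changes, 2 steps between neighbours had intervals that did not overlap. One was the step of 0.93 from Tlr8 to Tlr13, and the other the step of 0.86 from Tlr7 to Tlr2. The neighbours Tlr13, Tlr1, Tlr9, Cd14 and Tlr7 each overlapped the next, as did Tlr2, Tlr4 and Tlr6.

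The endosomal receptors in the table had a median log2 fold change of 2.93 (range 2.05 to 4.03, 4 genes) and the cell-surface receptors one of 1.17 (range 1.02 to 2.90, 4 genes). The median of the endosomal class was 1.76 higher, and 1.59 to 1.93 higher when any single receptor was left out. The classes were not separate: Tlr1 exceeded Tlr9 and Tlr7. Of the 16 pairs of an endosomal and a surface receptor, the endosomal one was higher in 14, with intervals that did not overlap in 12. The 4 overlapping pairs were Tlr1 with Tlr13, Tlr9 and Tlr7, and Tlr6 with Tlr7. Receptors are not replicates, and 3 of 7 endosomal and 1 of 5 surface genes have no row, so the difference of the classes is a description with no test. Tlr7, Tlr8 and Tlr13 are X-linked and no surface receptor with a row is, so class and X linkage cannot be fully told apart here.

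Levels per length gave another order than the fold changes. Per kb of exon, the highest implied level in the knockout was that of Cd14 (1426 normalized counts per kb), followed by Tlr13 (612), Tlr8 (321), Tlr7 (304) and Tlr2 (276). Tlr4 (141), Tlr1 (62.1), Tlr9 (52.9) and Tlr6 (25.5) were lower on the same scale. In wild type Tlr2 was the highest receptor after Cd14, at 121 normalized counts per kb beside 325 for Cd14, and Tlr8 stood at 19.7. Tlr8 thus ranked below Tlr2, Tlr7, Tlr13 and Tlr4 in wild type and above all of these but Tlr13 in the knockout.

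**Figure D2:**
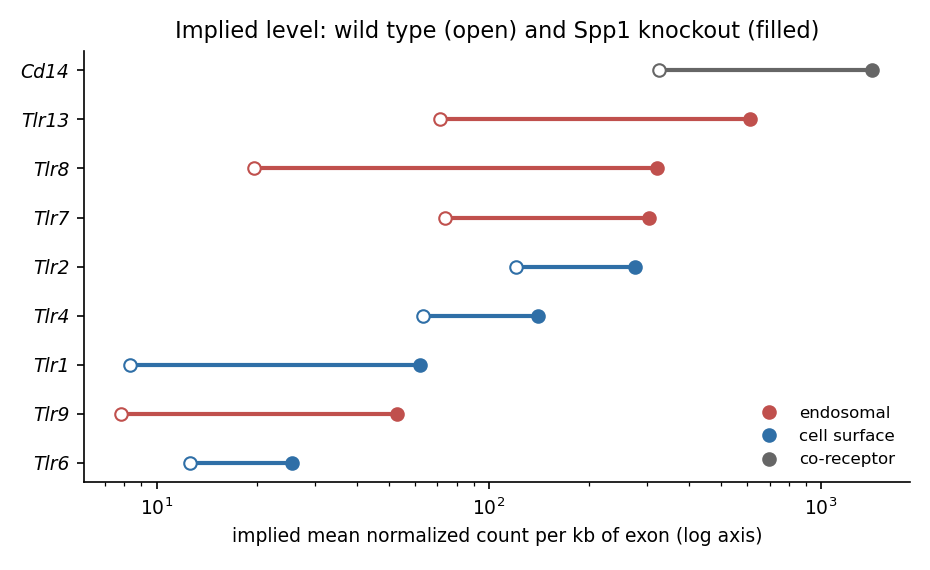
Implied mean normalized count per kb of exon (x axis, log axis) of each member (y axis), with open points for wild type and filled points for the knockout, joined by a line; the table holds no values per sample from which to draw an error. Tlr8 spans the longest line, from 19.7 to 321, and Tlr6 the shortest, from 12.6 to 25.5.

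Summed over the 8 receptors in the table, the endosomal class made up 45.6% of the implied level per kb in wild type and 71.9% in the knockout. Tlr2, Tlr4, Tlr1 and Tlr6 made up the rest. These shares cover only receptors with a row, and library depths are unknown, so no interval was given.

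Markers of macrophages and microglia were higher beside the receptors. Of 27 such markers 23 were in the table and all 23 were higher, where 21.7% of the genes implied to have been tested have a row and 54.9% of rows are higher. Their median log2 fold change was 2.22 (range 0.91 to 4.36). The mannose receptor gene Mrc1 rose by 4.36 (SE 0.13), Mpeg1, a perforin-like protein, by 2.30 (0.09) and the adhesion receptor gene Adgre1 by 2.85 (0.13) in the authors' deposited table. Itgam, which encodes the integrin CD11b, was 6.52-fold higher, with implied means of 1128 and 7349. Their summed implied level went from 43382 normalized counts in wild type to 202509 in knockout, a ratio of 4.67, and none was at 0. The ratio of summed levels was 7.39 for the endosomal receptors, 2.42 for the surface receptors and 4.39 for Cd14. In bulk RNA a larger number of such cells and more RNA per cell cannot be told apart, and the part of these cells in the receptor values was not tested.

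Against the same markers, the members lay on both sides of the median. Tlr8 exceeded 22 of the 23 markers, Tlr13 and Tlr1 exceeded 21, and Tlr9 exceeded 20. Cd14 and Tlr7 lay near the middle, above 10 and 8 markers. Tlr2, Tlr4 and Tlr6 each exceeded 1 of them. Relative to the marker median, Tlr8 was 1.81 higher on the log2 scale, while Tlr6 stood at -1.20.

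**Figure D3:**
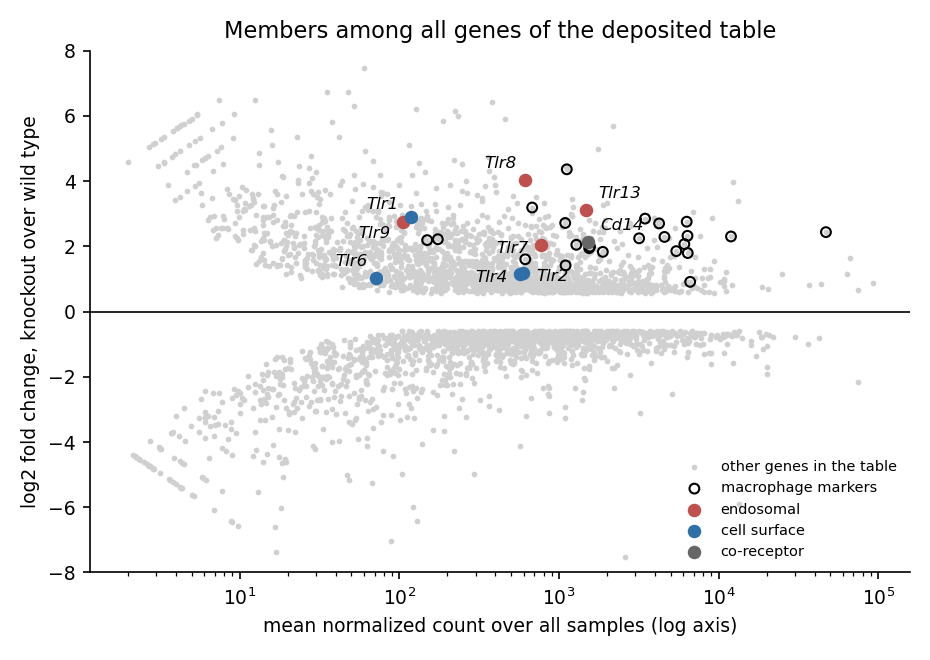
Log2 fold change (y axis) against mean normalized count over all samples (x axis, log axis) for every gene of the authors' deposited table, with 5 genes beyond 8 in size not drawn; coloured points are members, open circles the macrophage markers and grey points other genes. The empty band around 0 is the authors' fold limit, and the members lie above it within the range of the markers, Tlr2, Tlr4 and Tlr6 near its lower edge.

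Markers of other cell types had fewer genes in the table, where 21.7% of the genes implied to have been tested have a row. Dendritic cell markers had 1 of 7 genes there and neutrophil markers 1 of 6, with Itgax (1.50, SE 0.55) and Csf3r (1.35, 0.30) higher in the authors' deposited table. Of 5 B cell and 5 T or NK cell markers, 0 and 0 were in the table. Endothelial markers had 2 of 5, Kdr (2.08, SE 0.18) and Cdh5 (1.11, 0.11), both higher in the authors' deposited table. Of 11 astrocyte markers 5 were in the table, 3 higher and 2 lower. Gfap, the intermediate filament of astrocytes, had implied means of 58315 and 91923, and Aqp4, their water channel, of 15585 and 34520 normalized counts. Aldoc, an aldolase of astrocytes, was also higher (1.18, SE 0.21) in the authors' deposited table. Lower were S100b, which encodes a glial calcium-binding protein, with a log2 fold change of -1.82 (SE 0.15), and Pax2, a transcription factor of optic nerve astrocyte precursors, with -0.98 (0.26), in the authors' deposited table. RNA of all 5 was present in both groups.

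Tlr7, Tlr8 and Tlr13 are X-linked, and Y-linked genes also differed between the groups. The Y-linked genes Ddx3y, Eif2s3y, Uty and Kdm5d were higher by 5.91 to 13.26 on the log2 scale in the authors' deposited table, 4 of 8 on their list. Implied means of Ddx3y were 0.16 in wild type and 1605 in the knockout, and those of Eif2s3y 0.16 and 550. Uty had implied means of 7.12 and 457 and Kdm5d of 15.0 and 905. Of 6 genes on a list of X inactivation and of X-linked partners of Y-linked genes, 1 had a row, Kdm5c, at -0.62 (SE 0.11) in the authors' deposited table. The other genes of that list, Xist and Tsix among them, had no row. Of 148 X-linked rows 72 were higher and 76 lower (48.6% higher), beside 55.2% higher among autosomal rows. Median log2 fold changes were -0.59 for X-linked and 0.67 for autosomal rows. No row had a change smaller than 0.58 in size, so both medians lie near that limit. Their difference in sign restates the shares and is not a measure of a shift. The log2 fold change of Tlr7 was reached by 19 X-linked rows (12.8%) and by 498 of 3429 autosomal rows (14.5%). The 3 X-linked members rose by 2.05 to 4.03. Of the 6 autosomal ones Tlr1, Tlr9 and Cd14 rose by 2.13 to 2.90 and Tlr2, Tlr4 and Tlr6 by 1.02 to 1.19. The sex of the cultures cannot be told apart from genotype, and its part in the X-linked receptors was not tested.

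Other genes of the pathway were mostly higher. Of 99 genes on 8 lists by role, the members left out, 46 were in the table, 44 higher and 2 lower. Of all genes implied to have been tested, 21.7% have a row, the share to set beside the count of each list below. Their median was 1.66 on the log2 scale. The higher share was 95.7%, beside 54.9% for all rows. The lists were compiled with earlier results of these data known, so they were given as counts with no test.

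Co-receptors and ligand-binding proteins had 5 of 6 genes in the table, Cd14 included, and all 5 rose, with a median log2 fold change of 2.46. Cd180, a receptor-like protein related to Tlr4, rose by 2.19 (SE 0.11) and its partner Ly86, also called MD-1, by 2.53 (0.17) in the authors' deposited table. Cd36, a scavenger receptor that assists Tlr2 with Tlr6, rose by 2.46 (0.16) there, and Lbp, the lipopolysaccharide-binding protein, by 2.61 (0.19). Ly96, the MD-2 partner of Tlr4, had no row.

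The list of receptor chaperones and transport had 3 of 10 genes in the table, all higher, where 21.7% of the genes implied to have been tested have a row. Unc93b1, the chaperone that endosomal receptors require, rose by 2.11 (SE 0.14) in the authors' deposited table, with implied means of 517 and 2237. Slc15a3, a lysosomal transporter of histidine and peptides, rose by 1.66 (0.14) and Rab7b, a GTPase of late endosomes that acts on Tlr4 and Tlr9 traffic, by 0.99 (0.16) in the authors' deposited table. The rise of Unc93b1 lay beside those of Tlr7 (2.05) and Cd14 (2.13) and above those of Tlr2, Tlr4 and Tlr6.

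Proteases that cut endosomal receptors into their active form had 5 of 6 genes in the table, all higher, with a median log2 fold change of 0.91. Ctss, cathepsin S, rose by 2.21 (SE 0.19), Ctsb, cathepsin B, by 1.63 (0.19), Ctsl, cathepsin L, by 0.91 (0.14) and Lgmn, the asparagine endopeptidase, by 0.77 (0.16) in the authors' deposited table. The 4 endosomal receptors with a row had larger log2 fold changes than Ctsb, Ctsl and Lgmn.

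Adaptors had 3 of 6 genes in the table, all higher and of unequal size. Myd88, the adaptor of nearly all these receptors, rose by 0.61 (SE 0.19, adjusted p = 0.00570) in the authors' deposited table, with implied means of 402 and 614. Ticam2, the bridging adaptor for internalised Tlr4, rose by 2.07 (0.25), and Pik3ap1, which links the receptors to phosphoinositide 3-kinase, by 2.71 (0.12), also in the authors' deposited table. The 95% interval of each member other than Tlr2, Tlr4 and Tlr6 lay above the upper end of that of Myd88.

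Kinases and ubiquitin ligases had 10 of 19 genes in the table, all higher, with a median log2 fold change of 0.89. Syk and Btk, tyrosine kinases of immune cells, rose by 2.56 (SE 0.14) and 2.42 (0.21) in the authors' deposited table. The first kinase of the Myd88 complex, Irak4, rose by 1.16 (0.12), and Tab2, a partner of the kinase Tak1, by 0.74 (0.12) in the authors' deposited table. Transcription factors had 4 of 13 genes, all higher, where 21.7% of the genes implied to have been tested have a row. They were Irf8 at 2.08 (0.23), Irf5 at 1.84 (0.15), Spi1 at 1.60 (0.22) and Rel at 1.44 (0.20) in the authors' deposited table. The other factors of the list, Nfkb1, Rela, Irf3 and Irf7 among them, had no row. Spi1 was also counted among the macrophage markers. Irf5 and Irf8 act downstream of endosomal receptors in myeloid cells, and Rel is an NF-κB subunit of immune cells.

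Negative regulators had 8 of 18 genes in the table, 6 higher and 2 lower, the 2 lower genes of the whole pathway set. Inpp5d, the lipid phosphatase SHIP1, rose by 2.61 (SE 0.22), Ptpn6, the tyrosine phosphatase SHP-1, by 2.24 (0.20), Nrros by 2.12 (0.28) and Irak3, a kinase-like brake on Myd88 signalling, by 1.96 (0.26) in the authors' deposited table. Dusp1, a phosphatase that ends MAP kinase signalling, fell by 0.84 (0.13), and Il1rl1, a receptor of the same domain family, fell by 1.56 (0.48), in the authors' deposited table.

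Cytokines and enzymes that these receptors induce had 9 of 22 genes in the table, all higher, with a median log2 fold change of 1.76. The lipocalin gene Lcn2 rose by 3.33 (SE 0.26) in the authors' deposited table, with implied means of 362 and 3630. The chemokine genes Cxcl1, Ccl3 and Ccl2 rose by 2.56 (0.46), 1.10 (0.25) and 1.48 (0.39) there, from implied wild-type means of 8.03, 74.5 and 77.2 normalized counts. The other 13 genes of that list, Tnf, Il6, Nos2 and Ifnb1 among them, had no row.

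**Figure D4:**
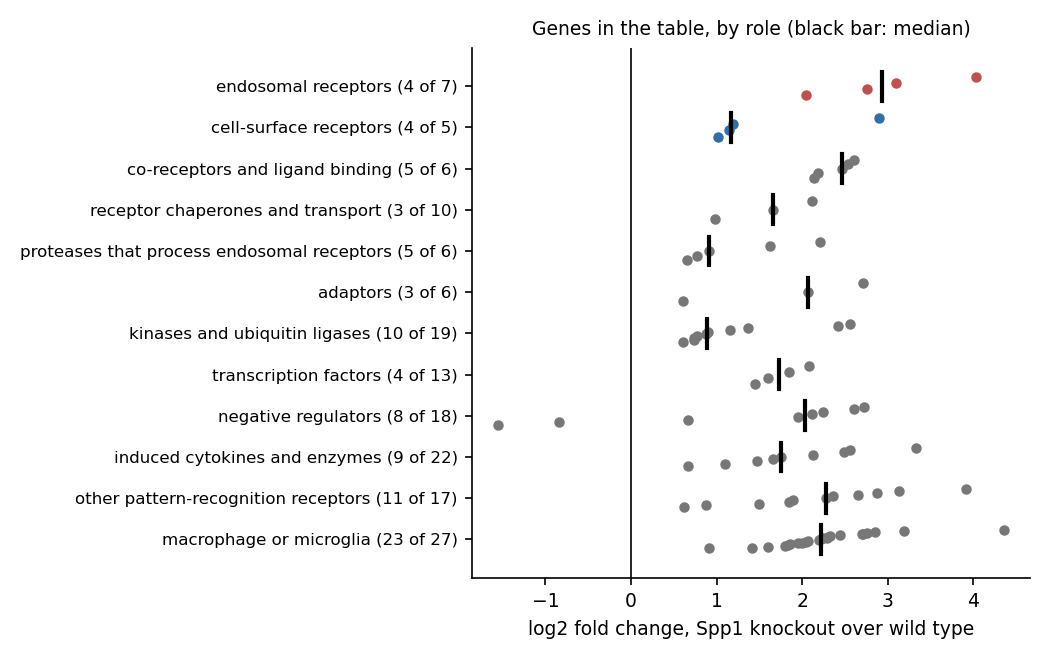
Log2 fold change (x axis) of each gene in the authors' deposited table by role (y axis, with the number in the table of the number on the list); points are genes, black bars medians, red the endosomal and blue the surface receptors. The points lie right of 0 except Dusp1 and Il1rl1 among the negative regulators.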

How the data were processed

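RNA-seq of 4 wild-type and 4 Spp1 knockout samples was analysed from 1 table, the authors' deposited comparison of the genotypes. Per the submitters' processing notes, the authors used CASAVA 1.8, STAR 2.7, DESeq2 1.30.1 and GRCm38, with no step named. The sources used here do not give the counting, annotation or filters. The authors deposited, per the file headers, the average signal of all samples in normalized counts, the log2 fold change and its error, the Wald score, and raw and adjusted p-values. The largest adjusted p was 0.0499 and the smallest absolute log2 fold change 0.58, so the table was filtered on both; the adjusted p-values imply about 16700 tested genes, of which 21.7% have a row. With no values per sample, the count model planned for such values was not run, depth is unknown, and no test was added. Adjusted p-values are those the authors deposited, of a Wald test that their DESeq2 column names point to.

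Implied group means follow from the mean count and fold change; intervals at 95% use the deposited standard errors and the normal quantile. Lengths (union of exons), positions and chromosomes came from GENCODE M21 (GRCm38), with 3583 of 3624 symbols matched. Named genes are every member and, per list, up to 4 genes with the largest absolute Wald statistic plus lower genes where 3 or fewer. Lbp, Tnf, Il6, Nos2, Ifnb1, Nfkb1, Rela, Irf3, Irf7, Xist, Tsix and the genes named in other observations beyond this rule were chosen after their values or rows were seen. Members and lists were chosen with earlier results of these data known. Formulas were tested on simulated data. Python 3.11.15 with pandas 2.3.3 was used.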

Additional observations from a re-analysis of the deposited data

How the results depend on the processing

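The settings for members, pathway genes and markers only left out rows. No direction could change, and the counts show only which rows passed. All 9 members had a log2 fold change of 1 or more in size and a mean count of at least 10. At an adjusted p of at most 0.01 or a mean of at least 100, 8 remained, both without Tlr6, and 6 without X-linked genes. The difference of 1.76 between the class medians ranged from 1.42 (means in place of medians) to 1.93 over its 15 alternatives. Without X-linked genes it was 1.59, with Tlr9 as the only endosomal receptor left. The 44 higher pathway genes ranged from 31 to 44, and the 23 markers from 22 to 23. The 2 lower pathway genes became 1 at a fold change of 1 or more in size (Il1rl1) and 1 at a mean count of at least 100 (Dusp1), because fewer genes passed. Levels per kb with the longest coding transcript, an alternative chosen after seeing the data, moved Tlr4 in the knockout from 141 to 192 normalized counts per kb. Every other member changed by a smaller proportion or not at all. No paired analysis was possible because the table holds no values per sample, and leaving out replicates was not run for the same reason. Deposited standard errors of the members ran from 0.14 to 0.38, and their relation to depth, which is unknown, was not tested.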

Other observations

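Genes for sensing microbes in the cytosol or through lectin domains, some of them adaptors such as Pycard, were also higher. Of 17 such genes 11 were in the table and all 11 were higher, where 21.7% of tested genes have a row and 54.9% of rows are higher. They had a median log2 fold change of 2.28 (range 0.62 to 3.91), beside 2.40 for the 8 Toll-like receptors. Naip2 and Naip5, which bind bacterial secretion proteins and flagellin, rose by 2.36 (SE 0.18) and 1.89 (0.25), and their partner Nlrc4 by 3.91 (0.39) in the authors' deposited table, where the implied means of Nlrc4 are 7.34 and 111. Aim2, a sensor of cytosolic DNA, rose by 2.65 (0.31), while Ifih1, the RNA sensor MDA5, and Nod1, a sensor of peptidoglycan fragments, rose by 0.88 (0.23) and 0.62 (0.20) in the authors' deposited table. As for the receptors, 23 of 23 macrophage markers with a row were higher, and their part was not tested.

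Within 500 kb of the members 15 other genes had a row, 7 higher and 8 lower, where 54.9% of all rows are higher. Around Tlr9 there were 6, 2 higher and 4 lower, from Col6a5 at 2.89 (SE 0.65) to Pcbp4 at -0.80 (0.25) in the authors' deposited table. Sfrp2, 62.0 kb from Tlr2, had a log2 fold change of -2.62 (0.63), and Hbegf, 209 kb from Cd14, one of -1.40 (0.12), in the authors' deposited table. Both neighbours of Tlr13 were higher, Atp7a at 0.95 (0.23) and Cysltr1 at 3.07 (0.75), as was Ankhd1, the nearest to Cd14 with a row, at 1.01 (0.29), in the authors' deposited table. Near Tlr1 and Tlr6, Tmem156 stood at 3.23 (0.71) and Wdr19 at 0.59 (0.15) in the authors' deposited table.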
